A study of Mus musculus with 4 samples.

Results

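Narrow H4K16ac islands that were called in neural progenitor cells (NPC) and shared no base with any island of the embryonic stem cells (ESC) they came from are described here. An island is a stretch of the genome in which the peak caller SICER found more ChIP-seq reads than background. The islands were chosen on chromosomes 1 to 19 of mouse build mm9 by 3 conditions. They are at most 2000 bp wide, they hold fewer than 120 reads per kb (called density below), and they share no base with any ESC island. Of 48170 autosomal NPC islands, 5737 met all 3 conditions (11.9%, exact 95% interval 11.6% to 12.2%). They were 18.2% of the 31481 NPC-only islands, out of 88848 islands in both deposited lists. Width, density and the absence of an ESC island chose them and are given as description.

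Both cell types came from 46c, a mouse ES cell line with a GFP reporter in Sox1, a gene switched on in neural progenitors. ESC were undifferentiated. NPC were differentiated for 5 days with NB27 and Neuro2 supplements and sorted for GFP. Each cell type gave 1 H4K16ac ChIP library and 1 MNase input library. The same lot of a Millipore antibody was used for both ChIPs, and chromatin was cut with MNase, which digests the DNA between nucleosomes. The line carries its reporter in both states, and no other line or replicate culture was compared, so that every difference between ESC and NPC is a difference between these 2 libraries. No p-value was computed. Intervals of shares and medians treat islands as independent draws, and no interval covers variation between cultures. The labelled cell types were not checked against marker genes, since no mm9 gene annotation was used here, and islands are given by position alone.

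H4K16ac is an acetyl group on lysine 16 of the histone H4 tail, the part of the nucleosome that contacts its neighbours in a folded fibre. It is placed mainly by the acetyltransferase KAT8 (MOF), which works in the MSL and NSL complexes, and is removed by deacetylases such as SIRT1. In mammalian cells it is found at active genes and enhancers, as broad domains over gene bodies and as short stretches at regulatory elements. Neural progenitors are the dividing cells from which neurons and glia arise.

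By the choice of narrow islands of limited density, the narrow NPC-only islands held few reads each. Together they covered 8.84 Mb, 2.88% of the autosomal bases under NPC islands, and held 748293 reads, 3.07% of autosomal NPC island reads. Reads per island ran from 65 to 236, with a median of 129 and quartiles of 112 and 147. For a median island, counting error alone is 8.80% of its reads. The median density was 85.6 reads per kb (quartiles 76.7 and 95, lowest 54, highest 119).

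Wider islands held more reads at lower density. The 550 islands of 1000 bp had a median of 100 reads, and the 1151 islands of 2000 bp had a median of 153. Median density fell over these widths from 100 to 76.5 reads per kb, and the rank correlation of width and density over all 5737 islands was -0.63. The rule limits both measures, and at each width reads run only from the lowest called island to the density limit. The fall with width is therefore a description only. Numbers rose with width from 22 islands of 600 bp to 1151 of 2000 bp, and 0 NPC islands of 400 bp or less lay under the density limit. Relative to the lowest NPC island of equal width, the median was 1.38 times as many reads (quartiles 1.29 and 1.5), and the highest was 2.19 times. Of the 5737, 4282 (74.6%) held fewer than 1.5 times that lowest number. The density limit caps this ratio at 1.11 for 600 bp, 1.48 for 800 bp and 2.22 for 2000 bp, so that it fixes all 307 islands of 600 and 800 bp under 1.5, and these values are a description only. Narrow NPC islands that did share bases with ESC, under the same cap, had a median of 1.43 times, with 63.5% under 1.5 times.

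**Figure D1:**
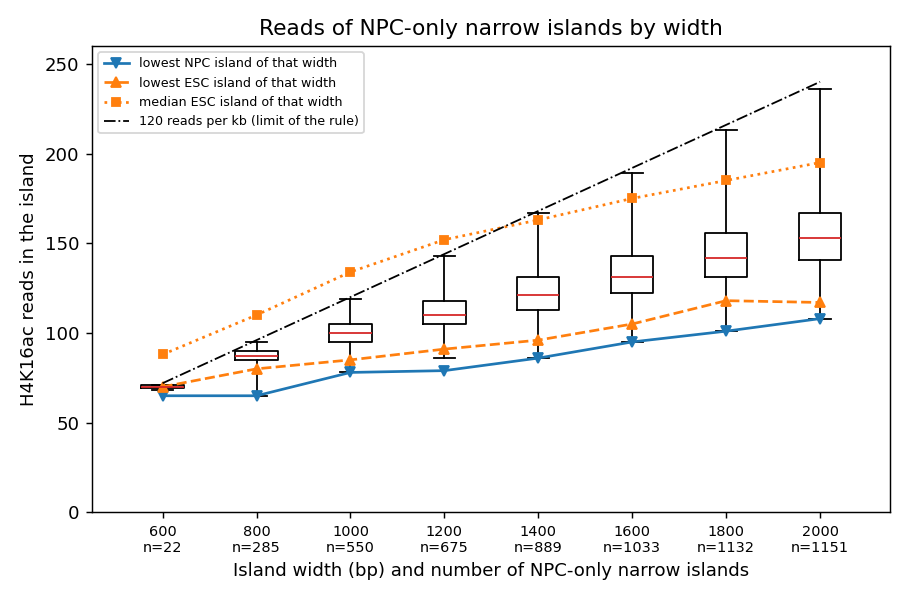
Reads in NPC-only narrow islands (vertical axis) by island width in bp (horizontal axis, with the number of islands). Boxes span the quartiles with the median in red, and whiskers reach the lowest and highest island. Triangles mark the lowest NPC and ESC island of each width, squares the median ESC island, and the dash-dotted line the density limit of 120 reads per kb. At 2000 bp the median was 153 reads, against 108 in the lowest NPC island and 195 in the median ESC island of any density.

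ESC islands of equal width, taken without a density limit, held more reads at the median. At 1000 bp the median ESC island held 134 reads, and all 550 NPC-only islands of that width lay below it, which the density limit of 120 reads per kb fixes. At 2000 bp the median ESC island held 195 reads, and 1093 of 1151 lay below it. The density limit bears on this too, since only 1204 of the 1698 ESC islands of 2000 bp lay under it. All NPC islands, also taken without that limit, had medians of 101 reads at 1000 bp and 155 at 2000 bp. The lowest ESC islands held 85 reads at 1000 bp and 117 at 2000 bp. Of the 5737 NPC-only islands, 88 (1.53%) held fewer reads than the lowest ESC island of their width. Per 1000000 island reads of each list, 4488 (78.2%) lay below that ESC limit. That scaling uses reads inside called islands, so it depends on the lists themselves and is not a scaling to library depth. Reads outside islands are in neither list, and ESC may still carry the mark there, below the level at which it was called. The total depth of the libraries is unknown, and its part in the number of NPC-only islands was not tested.

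The limits of the rule cut through continuous distributions. The 1151 NPC-only islands of 2000 bp had a median of 153 reads, and the 1223 of 2200 bp, just outside, had 165 reads. Their median distances to the nearest other NPC island were 8000 and 7800 bp. Just inside the density limit, 136 islands had 115 to under 120 reads per kb. Just outside it, 89 had 120 to under 125. Both groups had a median width of 800 bp.

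The share of narrow NPC islands without an ESC counterpart was near that of NPC islands in general. Of the 8183 autosomal NPC islands within the width and density limits, 70.1% shared no base with an ESC island (69.1% to 71.1%), against 65.4% of all 48170 autosomal NPC islands. The share was 70.1% for islands of 2200 to 7800 bp too, and 51.7% for islands of 8000 bp or more. By width, it was lowest at 57.9% for the 38 islands of 600 bp and lay between 66.9% and 71.5% from 800 to 2000 bp. Where a narrow NPC island did meet an ESC island, it mostly lay wholly inside it. This held for 2056 of 2446 (84.1%, 82.5% to 85.5%). Over all 2446, the ESC island that was met had a median width of 3.2 kb. Narrow NPC islands that overlapped ESC islands only in part were thus the minority of these.

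The mirror class, ESC-only islands within the same limits, was of similar size and somewhat denser. Of 6010 autosomal ESC islands within the limits, 4793 (79.8%, 78.7% to 80.8%) shared no base with an NPC island, against 59.2% of all 39508 autosomal ESC islands. Their median was 145 reads and 99 reads per kb at the same median width of 1600 bp. The same density limit keeps unlike parts of the lists. It kept 92.9% of the 8804 NPC islands of at most 2000 bp, and 46.5% of the 12913 ESC ones.

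Distance to other NPC islands was not a condition of the rule, but it is tied to width, which was. SICER joins windows across 600 bp, so closely spaced windows form wider islands. The comparisons with wider islands, here and below, are thus not independent of the rule. The narrow NPC-only islands lay farther from other NPC islands than wider NPC-only islands did. The nearest other NPC island was at a median of 8.8 kb from edge to edge (8.2 to 9.4), with quartiles of 1.8 and 31.6 kb. NPC-only islands of 2200 to 7800 bp had a median of 4 kb (3.8 to 4.2), with quartiles of 1 and 13.4 kb. Another NPC island lay within 5 kb of 39.6% of the narrow ones (38.4% to 40.9%) and of 55.1% of the intermediate ones (54.4% to 55.8%). A broad NPC island of at least 8000 bp lay within 20 kb of 23.4% (22.3% to 24.5%), against 38.5% (37.8% to 39.1%). Most narrow NPC-only islands thus had no broad NPC domain that near.

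Close up, the spacing of narrow NPC islands was alike with and without shared ESC bases, within the intervals. The 2446 shared ones had their nearest NPC island at a median of 8.5 kb (7.6 to 9.4), and 39.7% (37.8% to 41.7%) had one within 5 kb. They parted at longer range. A broad NPC island lay within 20 kb of 30.3% of the shared ones (28.5% to 32.2%), against 23.4% of the NPC-only ones (22.3% to 24.5%). No other NPC island lay within 100 kb of 10.6% of the NPC-only narrow islands (9.85% to 11.46%), of 4.70% of the shared ones (3.90% to 5.62%) and of 2.75% of the intermediate NPC-only ones (2.53% to 2.99%). These intervals did not overlap. The ESC condition of the rule separates the NPC-only from the shared narrow islands. Over the 5737 islands, distances to the nearest NPC and ESC island were rank-correlated, with a rho of 0.35. The differences between the narrow classes are thus not independent of the rule.

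**Figure D2:**
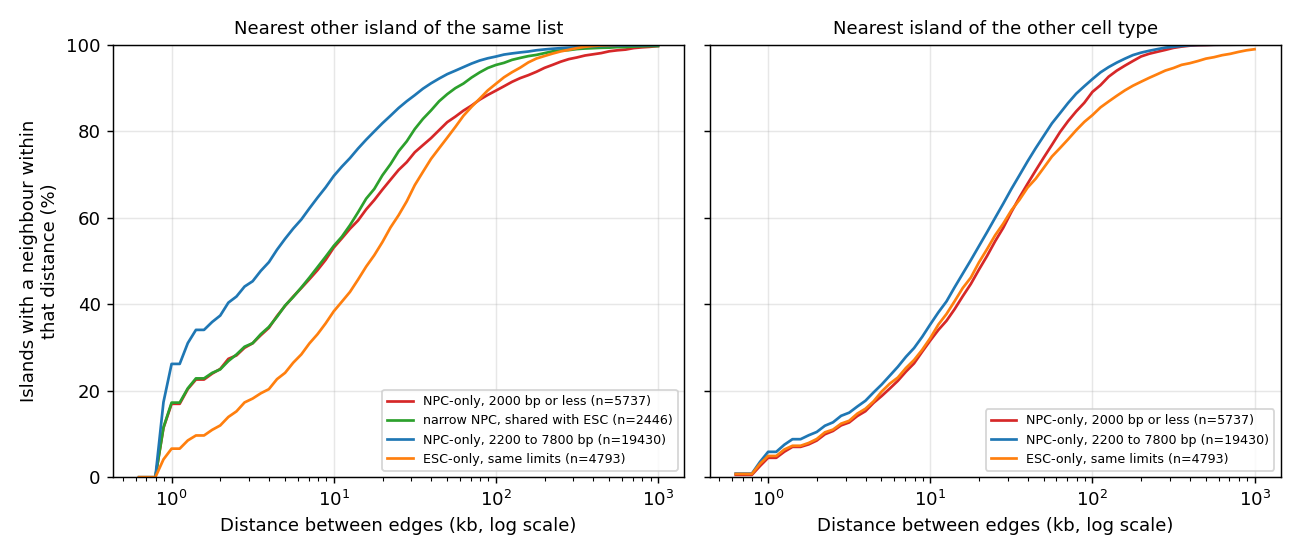
Share of islands (vertical axis, %) with a neighbour within a given distance between edges (horizontal axis, kb, log scale), to the nearest other island of the same list (left) and of the other cell type (right). Within 5 kb the NPC-only narrow islands (red) and shared narrow NPC islands (green) coincide at 39.6% and 39.7%, and at 100 kb the red curve is the lower, with 10.6% of islands left against 4.70%.

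The immediate neighbours were themselves of modest width. The nearest NPC island had a median width of 3200 bp (quartiles 2000 and 5400), against 4200 bp beside intermediate NPC-only islands and 3600 bp beside shared narrow ones. It shared bases with ESC in 23.0% of cases (21.9% to 24.1%), close to the 22.3% beside intermediate NPC-only islands. The share was 53.6% (51.6% to 55.6%) beside shared narrow ones and 36.4% (35.9% to 36.8%) for all 42433 other autosomal NPC islands. Those 42433 include islands that share bases with ESC. The ESC condition of the rule bears on these contrasts, since an ESC island that meets a shared island can also overlap the neighbour of that island. In 1108 cases (19.3%, 18.3% to 20.4%) the nearest NPC island was another narrow NPC-only island. That share was 13.8% (13.3% to 14.3%) beside intermediate NPC-only islands, 12.6% (11.3% to 13.9%) beside shared narrow ones, and 10.5% (10.2% to 10.8%) for all 42433 other autosomal NPC islands. Within 2 kb of a neighbour stood 1504 of the islands (26.2%), and 654 lay at the smallest gap in the list, 800 bp. Joining NPC islands across gaps of up to 2000 bp would absorb these 1504 into regions with a median width of 10000 bp. Of the 1504, 32.4% would then lie in a region that shares bases with ESC. That share was not computed for other NPC islands, so it is a description only.

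ESC islands were farther away than NPC islands for most of them. The nearest ESC island was at a median of 21.4 kb (20.6 to 22.4), with quartiles of 7.4 and 52.2 kb, against 17.6 kb (17.2 to 18) for intermediate NPC-only islands. An ESC island lay within 10 kb of 31.6% (30.4% to 32.8%) and beyond 100 kb of 10.9% (10.1% to 11.8%). For intermediate islands these shares were 35.3% and 7.97%. In 34.2% (33.0% to 35.4%), the nearest ESC island was closer than the nearest NPC island, which was the case for 23.8% (23.2% to 24.4%) of the intermediate ones.

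Among the ESC islands within 10 kb of them, narrow ones were somewhat fewer than in the whole ESC list. This did not hold at all distances. Over all 5737, the nearest ESC island had a median width of 2400 bp (quartiles 1600 and 4200). The median was 3000 bp beside intermediate NPC-only islands, and 3000 bp over all autosomal ESC islands. Within 10 kb, 1813 had an ESC neighbour. Of these neighbours, 30.0% were at most 2000 bp wide (27.8% to 32.1%), against 32.7% of all autosomal ESC islands. Dense narrow ones, at or above 120 reads per kb, were 12.9% (11.3% to 14.5%), against 17.5%. Within 2 kb, 24.9% of 530 ESC neighbours were at most 2000 bp wide (21.3% to 28.8%), and dense narrow ones were 6.42% (4.48% to 8.85%). Broad ones of at least 8000 bp were 18.5% there (15.3% to 22.1%), against 15.1% of all autosomal ESC islands. ESC neighbours within 10 kb were called in ESC alone in 50.3% (48.0% to 52.6%), against 59.2% of all ESC islands. Several NPC islands can share 1 ESC neighbour, so these neighbours are not independent.

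Gaps between the narrow NPC-only islands and ESC islands showed a step at 800 bp. With no shared base, 2 islands touched an ESC island, and gaps of 200, 400 and 600 bp were found 2, 7 and 21 times. Gaps of 800 bp were found 117 times, and those of 1000, 1200 and 1400 bp 109, 81 and 64 times. From 2200 to 2800 bp the counts were level, between 35 and 44 per step of 200 bp. The 25744 other NPC-only islands had the same step, from 141 at 600 bp to 745 at 800 bp. Within a list, 800 bp is the smallest possible gap, since SICER joins windows across 600 bp. The 2 lists carry separate labels, and that joining rule applies within a list. At gaps of 800 to 1400 bp, an NPC island began at the very same edge as the ESC island in 118 of 371 cases (31.8%, 27.1% to 36.8%). The ESC island was overlapped by some NPC island in 228 (61.5%, 56.3% to 66.4%). This was so in 46.0% (43.2% to 48.8%) of the 1283 cases with a gap of 2200 to 10000 bp. The 2199 other NPC-only islands at gaps of 800 to 1400 bp had similar shares. The same edge was found in 32.0% (30.1% to 34.0%) of them, and an overlapped ESC island in 65.3% (63.2% to 67.2%). The cause of the step was not tested.

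**Figure D3:**
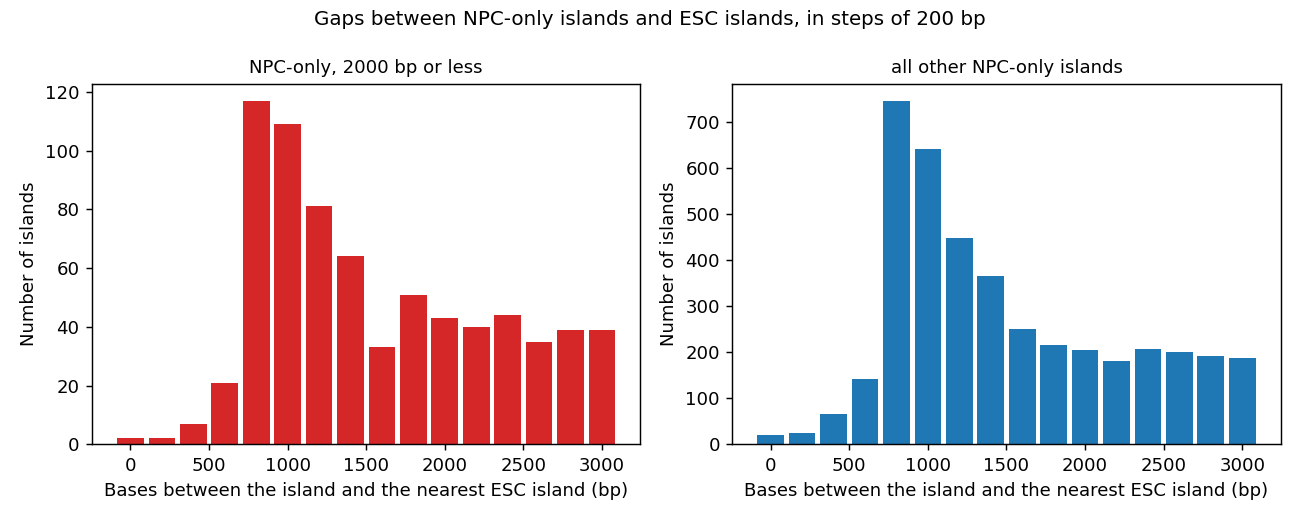
Number of islands (vertical axis) by the bases between an NPC-only island and the nearest ESC island (horizontal axis, bp, steps of 200), for the narrow NPC-only islands (left) and all other NPC-only islands (right). Counts rise from 21 to 117 and from 141 to 745 between 600 and 800 bp.

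By both kinds of neighbour, the largest group stood alone. In 2167 (37.8%, 36.5% to 39.0%) neither list had another island within 10 kb, against 20.5% of the other NPC-only islands. Another 1757 (30.6%) had only an NPC neighbour within 10 kb, 525 (9.15%) only an ESC neighbour, and 1288 (22.5%) both. Reads differed little between these groups, with medians of 125 for those alone and 132 for those with an NPC neighbour, and all 4 had a median width of 1600 bp. The quartiles, 109 and 143 for those alone and 114 and 149 for those with both neighbours, overlapped widely. The width and density limits hold reads in a small range, so this closeness is partly fixed by the rule.

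With growing distance to the next NPC island, narrow islands made up a rising part of the NPC-only islands. They were 11.9% (11.4% to 12.5%) of NPC-only islands with another NPC island within 2 kb. They were 21.1% (19.8% to 22.4%) at 10 to 20 kb and 50.9% (48.0% to 53.7%) beyond 100 kb, where they numbered 610. By distance to the nearest ESC island, the rise was smaller, from 14.5% (13.4% to 15.7%) within 2 kb to 24.4% (22.8% to 26.1%) beyond 100 kb. Median reads went from 133 within 2 kb of an NPC island to 120 beyond 100 kb. Median density stayed between 82.9 and 87.5 reads per kb over the same distances. The rule limits width and density, so small changes in both measures are partly fixed.

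The surroundings were less covered than those of wider NPC-only islands, in both lists. In the 50 kb on either side, NPC islands covered a median of 11.4% (10.8% to 12), and ESC islands 3.8% (3.6% to 4). The corresponding values were 22.4% and 6% for intermediate NPC-only islands. Shared narrow islands had an NPC cover of 17%, a contrast on which the ESC condition of the rule also bears. Their ESC cover is not comparable, because the ESC island that each one meets reaches into its flanks. No other NPC island reached into these flanks for 18.0% of the narrow NPC-only islands (16.99% to 18.99%), and no ESC island for 26.1% (25.01% to 27.3%). Averaged over islands, NPC cover of the flanks was 17.9%, above the 12.4% of the autosomes as a whole, and ESC cover was 8.72%, against 7.68%. Both were lowest close by. NPC cover was 6.92% within 2 kb, where no gap under 800 bp can occur, 16.8% from 2 to 4 kb, 19.3% from 6 to 8 kb and 17.7% from 98 to 100 kb. ESC cover was 1.96% within 2 kb, where the rule itself and the step at 800 bp enter, 5.88% from 2 to 4 kb and 9.84% from 98 to 100 kb. The ranks of NPC and ESC cover in the flanks were correlated over the 5737 islands, with a rho of 0.54. Neighbouring islands share flanks, so that these points are not independent.

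Across the autosomes the narrow NPC-only islands of the full list were spread more evenly than wider ones. They numbered from 2.01 per Mb on chromosome 4 (313 islands) to 2.76 per Mb on chromosome 13 (332 islands), a ratio of 1.37. NPC-only islands of 2200 to 7800 bp ran from 5.98 per Mb on chromosome 3 to 10.1 per Mb on chromosome 11, a ratio of 1.69. Those of 8000 bp or more ran from 0.909 to 4.42 per Mb on the same chromosomes, a ratio of 4.87. The order of the chromosomes and the ratio depended on the settings. With equal list lengths, which leave 756 islands, the ratio was 1.79, from 0.213 per Mb on chromosome 15 to 0.380 on chromosome 2. Under the other settings it lay between 1.38 and 1.47, with chromosome 13, 17 or 19 highest and chromosome 4 or 12 lowest. The SD over the 19 chromosomes was 10.3% of the mean for the narrow islands, where counting error alone gives 5.87%. It was 16.1% for the intermediate islands, with a counting error of 3.23%, and 35.9% for the broad ones, with 6.06%.

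Chromosomes rich in NPC islands therefore did not stand out in narrow NPC-only ones. Over the 19 autosomes, the Spearman correlation with the share of the chromosome under NPC islands was 0.24 for narrow islands per Mb, 0.81 for intermediate and 0.94 for broad ones. Broad islands make up much of that cover, so their value is partly fixed. As a share of the NPC islands of a chromosome, the narrow NPC-only ones were highest on chromosome 3, the least covered autosome, at 16.5% (14.9% to 18.2%), and on chromosome 13 at 16% (14.4% to 17.6%). They were lowest on chromosome 11, the most covered, at 9.19% (8.24% to 10.2%), and on chromosome 7 at 9.58% (8.62% to 10.6%). The median density per chromosome ran from 83.3 to 87.8 reads per kb, a range that the density limit narrows in advance.

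**Figure D4:**
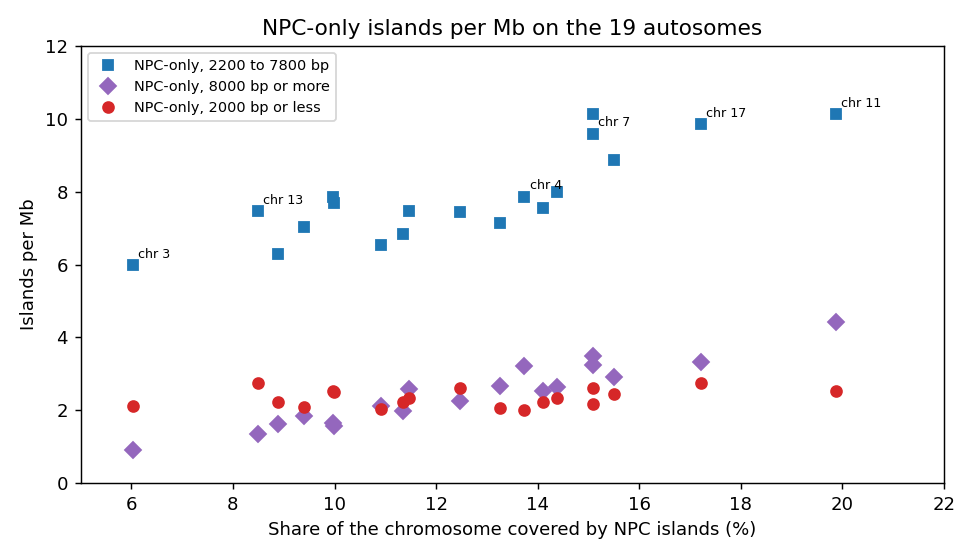
Islands per Mb (vertical axis) against the share of the chromosome covered by NPC islands (horizontal axis, %) for NPC-only islands of 3 width classes; each point is 1 of the 19 autosomes, with some labelled. The narrow islands (red circles) stay between 2.01 and 2.76 per Mb, while the broad ones (purple diamonds) go from 0.909 to 4.42 per Mb.

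At the scale of 1 Mb the narrow NPC-only islands did vary with their surroundings. Over 2418 windows the mean was 2.37 narrow NPC-only islands (SD 2.14), 20.7% of windows held 0, and the highest held 14. Intermediate NPC-only islands were missing from a similar 19.9% of windows. The variance was 1.93 times the mean, and 1.89 times for narrow islands shared with ESC, which average 1.01 per window. It was 7.58 times the mean for intermediate and 6.48 times for broad NPC-only islands, which average 8.04 and 2.49 per window. With the part that counting gives taken off, the spread was 62.5% of the mean for narrow NPC-only islands, 90.5% for intermediate and 148% for broad ones. It was 93.9% for narrow islands shared with ESC.

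Windows were also grouped by their ESC cover. The rule bears on this, since bases under ESC islands leave less room for NPC-only islands of any width, so these values are a description. Narrow NPC-only islands averaged 0.647 per window (SD 0.925) in the 323 windows with under 0.5% ESC cover. They rose to 3.40 (SD 2.18) in the 454 windows with 5% to 10%, and were at 2.63 (SD 1.74) in the 251 windows with 20% or more. Their share of the NPC islands in these windows went down throughout, from 42.1% (37.7% to 46.6%) to 13.4% (12.8% to 14.0%) and 5.59% (5.18% to 6.02%). Other NPC-only islands went from 0.824 to 14.9 and 20.1 per window. Narrow islands were thus a large part of the few NPC islands in stretches poor in H4K16ac islands, and a small part of the many in rich stretches.

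**Figure D5:**
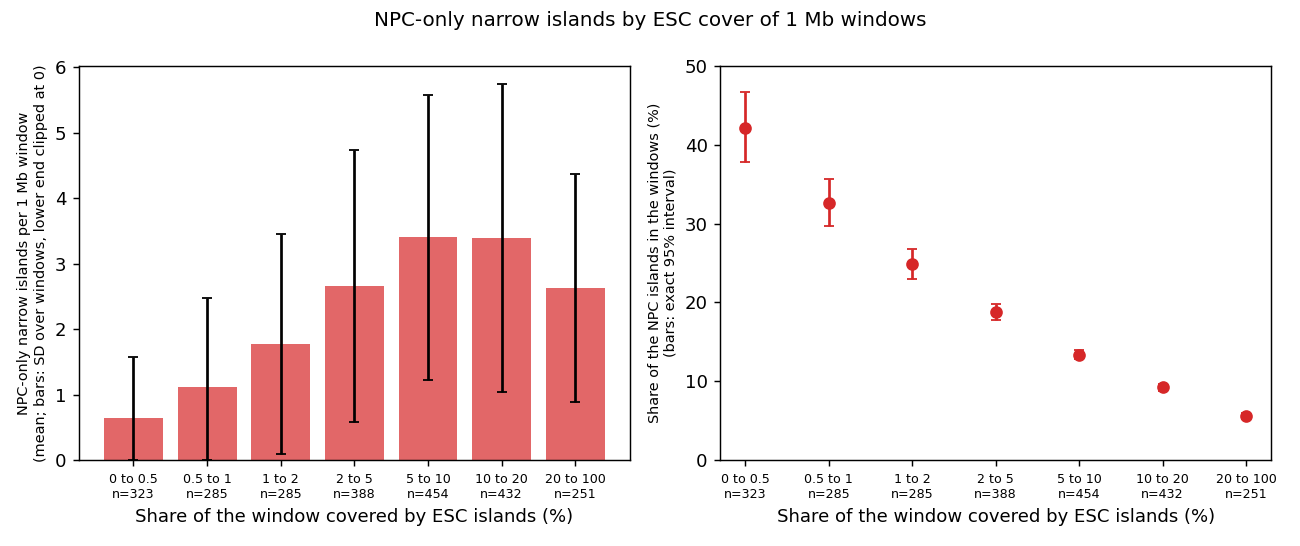
Mean number of NPC-only narrow islands per 1 Mb window (left; bars show the SD over windows, clipped at 0) and their share of the NPC islands in the windows (right, %; bars show exact 95% intervals), by the share of the window under ESC islands (horizontal axis, %, with the number of windows). The number peaks at 3.40 with 5% to 10% ESC cover, and the share goes from 42.1% to 5.59%.

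The 5 islands with most reads were all 2000 bp wide, the upper limit of the rule. The first, at positions 83986001 to 83988000 on chromosome 13, held 236 reads (118 per kb), 2.19 times the lowest NPC island of that width. It had no other NPC island within 967.8 kb, and its nearest ESC island, of 0.8 kb, was 33 kb away. The other 4 were different in setting, each with an NPC island 1 to 1.2 kb away. On chromosome 7, positions 151618201 to 151620200 held 231 reads, with an ESC island of 31.6 kb just 1 kb away and 81.4% of the flanks under NPC islands. On chromosome 1, positions 95902601 to 95904600 held 227 reads. The islands at 11039801 to 11041800 on chromosome 8 and at 7892801 to 7894800 on chromosome 17 held 224 each. The nearest ESC islands of these last 3 were 53.8, 29.6 and 161.4 kb away.

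The islands farthest from any other NPC island lay megabases from it. Positions 63022601 to 63024000 on chromosome 12 held 122 reads in 1400 bp, and the next NPC island was 2274.8 kb away. An ESC island of 1.2 kb with 169 reads per kb was nearer, at 152.4 kb. On chromosome 14, positions 111943401 to 111944800 held 130 reads, 1762.8 kb from the next NPC island and 129 kb from an ESC island. The next was on chromosome 16, from 81704801, at 1592.4 kb. Those after it started at 73804401 of chromosome 3 (1389.4 kb) and 80082801 of chromosome 5 (1296.4 kb). All 5 held between 1.41 and 1.71 times the lowest number of reads for their width, above the median of 1.38 for the whole set, and 2 of them lay above its upper quartile of 1.5. Medians at their own widths were 1.39 for 1200 bp and 1.41 for 1400 bp. The 5 do not stand for all far islands. Beyond 100 kb from an NPC island, median reads were 120 at a median width of 1400 bp, against 133 at 1600 bp within 2 kb.

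Those farthest from any ESC island lay at least 542.4 kb from it. The first, at 109433801 to 109435400 on chromosome 14, held 134 reads, 710.2 kb from the nearest ESC island and 731.4 kb from the nearest NPC island. On chromosome 4, positions 71113401 to 71114600 held 115 reads at 625.8 kb. Chromosome 10 had the next, from 108891201 (559.4 kb). It was followed by islands from 114525601 of chromosome 3 (543.6 kb) and from 39121401 of chromosome 4 (542.4 kb). Flanking NPC and ESC cover was 0 for all 5. In all, 208 islands (3.63%, 3.16% to 4.14%) had no island of either list within 100 kb, against 178 of 25744 other NPC-only islands (0.691%, 0.594% to 0.800%).

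In some stretches narrow NPC-only islands were the only NPC islands. Most followed no other of their kind, since 3774 (65.8%) stood as single ones in the order of NPC islands along the chromosome, and 1963 (34.2%) in runs of at least 2. The longest run had 8 islands on chromosome 13, from 82265601 to 85165800, a span of 2900.2 kb in which 12.2 kb lay in NPC islands. In order along the chromosome these held 140, 99, 104, 110, 236, 93, 160 and 174 reads. The fifth, at 236 reads, is the island with most reads named above, and the others lay between 93 and 174. ESC islands numbered 13 in the same span.

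The next run had 7 islands on chromosome 5, from 58804201 to 64160200. They held 145, 103, 143, 112, 118, 130 and 125 reads over 5356 kb, in which the ESC list had 37 islands. In this stretch ESC islands thus outnumbered NPC islands. There were 6 runs of 6. The first of these in chromosome order lay on chromosome 4 from 26976401, with 81 to 169 reads and 5 ESC islands in its span. It was followed by runs from 15388401 of chromosome 5 (91 to 150 reads, 21 ESC islands) and 18905401 of chromosome 6 (95 to 168 reads, 15 ESC islands).

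The 1 Mb windows with most of these islands were of another kind, well covered by other NPC islands. Windows starting at 116000001 (chromosome 6), 99000001 (chromosome 11) and 12000001 (chromosome 18) held 14 each, among 44, 55 and 77 NPC islands. The windows from 96000001 on chromosome 16 and 38000001 on chromosome 13 held 13 and 12. NPC islands covered 21.3% to 41.4% of the 5 windows and ESC islands 2.44% to 18.1%. The window on chromosome 11 had the lowest ESC cover, 2.44%, against 23.2% NPC cover.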

How the data were processed

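Of 4 libraries, H4K16ac island lists of 1 ESC and 1 NPC ChIP library were used. Per the submitters' processing notes, the tools were SICER 1.1, bedtools 2.10.1, Bowtie 0.12.7, CASAVA 1.8.2 and SAMtools 0.1.7, and the build was mm9. SICER's settings, from the deposited names, were FDR 0.01, gap 600 bp and window 200 bp. The deposited values are whole-number counts, read as H4K16ac reads per island, with no scaling by the authors to depth or input that the sources used here give. Duplicate removal and the use of input are not given in the sources used here. The lists hold 17935144 (ESC) and 24386370 (NPC) reads, and library depth is unknown. Without molecular identifiers, reads may be copies of 1 molecule, so intervals cover counting error only.

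Starts were moved by 1 to count from 1. Distances run from edge to edge. Shares have exact Clopper-Pearson 95% intervals, medians intervals from order statistics. The rule named the 5 islands with most reads, farthest from NPC and from ESC islands, the 5 longest runs and the 5 fullest windows. The islands, limits and comparison classes were chosen with earlier results of these data known. Alternatives were other width and density limits, a 600 bp distance to ESC islands, a read minimum, equal list lengths, no chromosome ends and distances between centres. Results by gene and by sequence were not run, because no mm9 annotation or genome was used here.

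The code was tested on simulated islands set at known distances from real NPC islands: 15580 of 15580 distances were recovered, with 0 false overlaps. In the real lists, overlaps and nearest distances of all 48170 islands equalled those of bedtools 2.31.1. Python 3.11.15, numpy 2.4.6, pandas 2.3.3, scipy 1.17.1 and matplotlib 3.10.9 were used.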

Additional observations from a re-analysis of the deposited data

Results flagged for a closer look

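Chromosome X lies outside the rule, yet 8 of its 107 NPC islands (7.48%, 3.28% to 14.2%) met the same width and density limits and shared no base with an ESC island. On the autosomes the share was 11.9%, which lies inside that interval. The 8 islands drew attention only as signal in data that the comparisons leave out. Their medians were 124.5 reads and 83.3 reads per kb at 1500 bp.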

How the results depend on the processing

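Recomputing gave 65 values, of which 36 lay inside the 95% interval of the value in the report and 29 outside. Equal list lengths kept the 39508 NPC islands with at least 159 reads and left 756 of the 5737 islands. Their upper quartile of reads was 147, below that minimum, so the setting removes most of them by its construction. The share of NPC islands was then 1.91%. It was 7.17% with a width limit of 1600 bp, 16.9% with 2400 bp, 9.73% with a density limit of 100 reads per kb and 6.06% with at least 129 reads. In the same order as these 5 settings, beginning with equal lengths, the nearest NPC island was another of the set in 2.91%, 14.2%, 26.5%, 15.4% and 8.74%, and the highest number per Mb was 0.380, 1.70, 3.97, 2.27 and 1.43. These follow from smaller or larger sets. The share without an ESC island was 61.4% with equal lengths, 72.2% with the density limit of 100 and 68.0% with the read minimum. The nearest NPC island was at 6.2 kb with equal lengths, 9.6 kb with 1600 bp, 7 kb with the read minimum and 12.1 kb between centres. An NPC island lay within 5 kb of 45.8% with equal lengths and 43.7% with the read minimum, and a broad one within 20 kb of 34.1% and 26.7%. The nearest ESC island was at 19.2 kb with equal lengths and 23.9 kb between centres, and 34.3% had one within 10 kb with equal lengths. Apart from these consequences of set size, the cause was not tested. No paired analysis was possible because each cell type has 1 library. Alternatives for promoters, GC content and CpG number were not run.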

Other observations

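Along the chromosomes, the narrow NPC-only islands were placed more evenly than the other 42433 autosomal NPC islands. With each chromosome cut into 10 equal segments up to its last island, the last segment held 690 of them (12.03%) and 16.1% of the other NPC islands. The second segment held 10.5% and 9.09%, and the first, next to the centromere, 7.02% and 6.17%.

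The mirror class of ESC-only islands was more scattered within its own list. Its nearest other ESC island was at a median of 16.8 kb (15.8 to 17.8), and 24.1% had one within 5 kb, whereas 8.8 kb and 39.6% were found for the NPC-only islands in the NPC list. The NPC list is the longer of the 2, so these distances are not on an equal footing. Toward the other list, both classes lay at similar distances, with medians of 20 kb (19.2 to 21) for the ESC-only and 21.4 kb (20.6 to 22.4) for the NPC-only islands.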
